A study of Mus musculus with 19 samples.

Results

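*Dnmt3l* KO spermatogonia were compared with spermatogonia of the same mouse line that carried at least 1 wild-type allele, by the RNA of their retrotransposons. The members are the 8 *Dnmt3l* libraries among the 19 mRNA-seq libraries of the series, chosen by their genotype labels: 3 KO libraries and 5 control libraries, of which 2 are wild type (*Dnmt3l*+/+) and 3 heterozygous. All came from testes at postnatal day 7 (P7), from which EpCAM-positive cells were sorted. EpCAM is a surface protein of undifferentiated spermatogonia, the premeiotic cells that include the spermatogonial stem cells. Per the study's methods, the line had been backcrossed to C57BL/6J and the libraries came from as many mice. The labels name neither a conditional allele nor a Cre for the KO. The groups follow the sample labels, although the methods count 3 wild-type mice and 2 heterozygous ones. The other 11 libraries are of a *Pld6* line and serve below as another mutant with its own controls. The files list retrotransposons only, so neither the loss of *Dnmt3l* transcript nor markers of spermatogonia or of other testis cells could be checked here.

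DNMT3L has no methyltransferase activity of its own. It binds the *de novo* DNA methyltransferases and is needed for the methylation that male germ cells lay down on retrotransposons as prospermatogonia, before the spermatogonial stage. Retrotransposons fall into LTR elements, which resemble retroviruses and carry their promoter in the long terminal repeat (LTR), LINEs, whose L1 family codes for its own reverse transcriptase, and SINEs, short elements such as B1 and B2 that code for no protein and are transcribed by RNA polymerase III, although copies within genes are also part of gene transcripts. Young, still mobile families of the mouse include the intracisternal A particles (IAPs), the ETn/MusD elements and the L1Md_A, L1Md_Gf and L1Md_T groups of L1.

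The authors mapped poly(A) RNA reads onto the consensus sequences of 259 mouse-specific subfamilies and deposited RPM, mapped reads scaled to the mapped total, for each. The LTR and the internal region of an LTR element, and the 5′ region, ORF2 and 3′ region of an L1, have consensus sequences of their own and are separate subfamilies here. RPM are not divided by length, so the level of a subfamily is compared between libraries. Rankings by RPM, shares of the summed RPM and ratios between subfamilies depend also on consensus length. Of the 259 subfamilies, 113 reached 1 RPM in 2 or more of the 8 libraries and were tested. The other 146 were not tested, and 28 of them were listed at 0 in all 8 libraries. At the edge of this filter, ETnERV2, IAPEY3C_LTR and RLTR48A reached 1 RPM in exactly 2 libraries, both KO, with highest values of 1.80, 1.41 and 1.89 RPM. Outside it, 6 subfamilies reached 1 RPM in 1 library, again always KO, with highest values from 1.00 RPM (RLTR9D) to 1.69 RPM (RMER17A). Read depth is unknown, since the files hold RPM only.

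RNA of the listed retrotransposons was higher in every KO library than in any control. The summed RPM of all 259 subfamilies was 12659, 12779 and 14603 in the 3 KO libraries. It ranged from 3382 to 4413 in the 5 controls, with a median of 3800. The means were 13347 ± 1090 RPM in KO (SD, n = 3) and 3848 ± 421 RPM in controls (SD, n = 5), a ratio of 3.47. A two-sided exact permutation test gave p = 0.0357, the smallest value that 3 libraries against 5 allow. After division by the median-ratio factors described below, the ratio of the means was 2.23, with 9444 to 10858 in KO and 3891 to 4993 in controls. LTR elements supplied most of the increase, with 10519 ± 1030 RPM in KO and 983 ± 84.6 RPM in controls. LINEs stood at 1540 ± 185 RPM against 497 ± 63.8 RPM, and SINEs went the other way, with 1288 ± 104 RPM against 2368 ± 372 RPM. In none of the 3 classes did the KO libraries overlap the controls. In these bulk libraries, more RNA per cell and more cells with the RNA cannot be told apart. Here and below, ± is the SD over 3 KO or 5 control libraries for levels and shares, and the SE for log2 fold changes.

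The RNA was also made up differently. SINE B1/B2 subfamilies held 61.3% ± 3.38 of the summed RPM in controls and 9.72% ± 1.40 in KO, while IAPs held 5.95% ± 0.652 in controls and 59.1% ± 3.08 in KO. MMERVK10 subfamilies held 5.87% ± 0.685 in controls and 10.6% ± 0.122 in KO, young L1 6.84% ± 1.03 and 8.67% ± 0.806, and MMERGLN 0.171% ± 0.0270 and 2.74% ± 0.792. A single consensus, IAPEz-int, accounted for 68.0% of the net difference in summed RPM between the groups, and MMERVK10C for a further 11.98%. L1_Mm_orf2 contributed 6.27%, IAPA_MM 4.87%, MMERGLN-int 3.57% and IAPLTR1_Mm 3.37%. SINE B1/B2 entered this net difference with −11.4%.

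**Figure D1:**
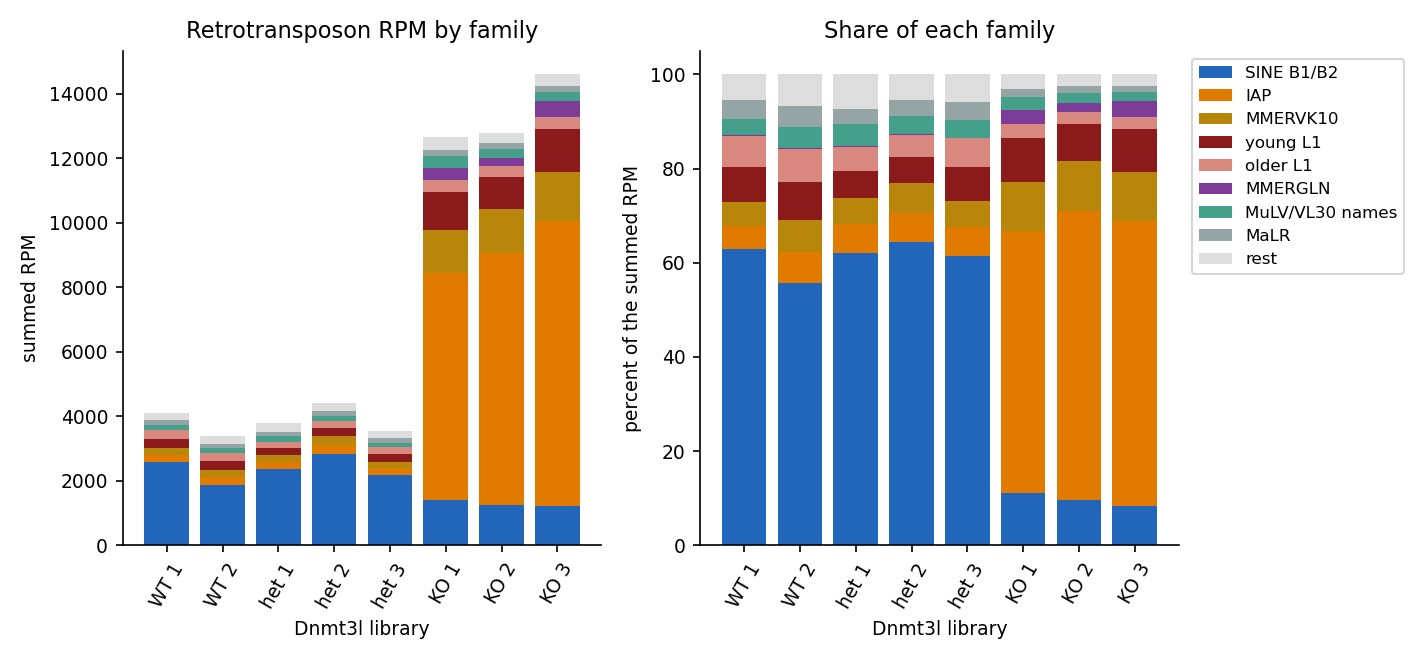
Summed RPM (left) and its makeup in percent (right) in each of the 8 *Dnmt3l* libraries, stacked by family. WT, wild type; het, heterozygous. The 5 control bars end between 3382 and 4413 RPM and are mostly SINE B1/B2, whereas the 3 KO bars end between 12659 and 14603 RPM and are mostly IAP.

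Each of the 113 subfamilies was tested with limma on log2(RPM + 1), with Benjamini-Hochberg adjustment over all 113. At an adjusted p under 0.05, 75 of them were higher in KO (66.4%), 7 were lower (6.19%), and the median log2 fold change of all 113 was 0.52. For 68 of the 113 (60.2%), every KO library lay above every control library, and for 7 (6.19%) every KO library lay below. The rises were of unequal size. In 31 subfamilies the log2 fold change was at least 1, and in 5 it was at least 5, while 44 of the called rises were smaller than 1. The smaller ones depended on the scaling of the libraries. After division by median-ratio factors, which were 1.24 to 1.34 in KO libraries and 0.761 to 0.916 in controls, the median log2 fold change was 0.04 instead of 0.52, and 33 subfamilies were higher (29.2%) and 14 lower (12.4%). All 33 were among the 75, and they included 30 of the 31 rises of at least 1 but only 3 of the 44 smaller ones. The factors came from 44 of the listed subfamilies themselves, so this scaling takes the typical subfamily as unchanged. It moves the median towards no change by design and would remove a rise shared by most subfamilies. Which of the scalings is closer to the RNA content of the cells was not tested. Below, a rise called under both scalings is given as such, and a family whose call or direction depended on the scaling is named with both results.

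**Figure D2:**
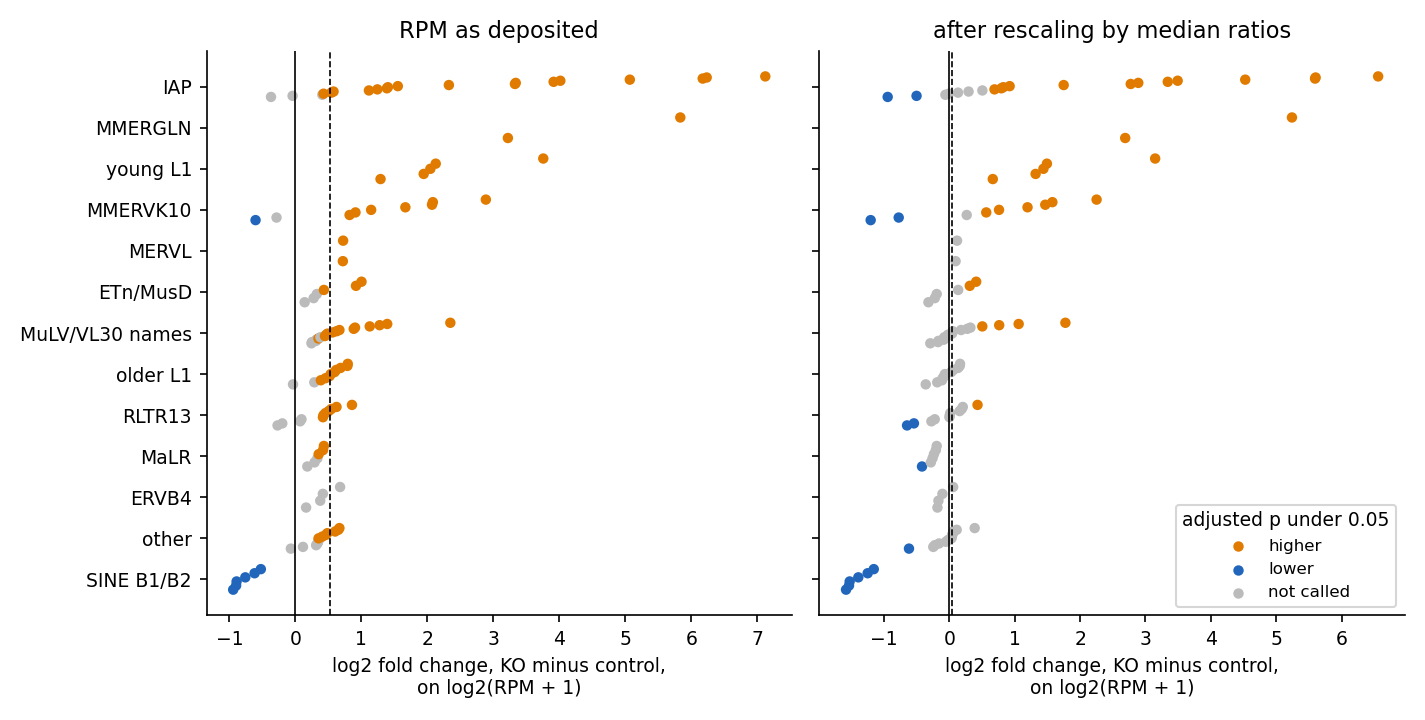
Log2 fold change (KO minus control, on log2(RPM + 1)) of each of the 113 tested subfamilies, grouped by family, for the deposited RPM (left) and after rescaling by median ratios (right). Orange, higher; blue, lower; grey, adjusted p of 0.05 or more; the dashed lines mark the medians, 0.52 and 0.04. MMERGLN, young L1, most IAP and most MMERVK10 subfamilies lie to the right of zero in both panels. IAPEy-int, IAPEY_LTR, MMERVK10D3_I, MMERVK10D3_LTR and SINE B1/B2 lie to the left in both. After rescaling, all MaLR lie left of zero (−0.42 to −0.19), older L1 have a median of −0.07, and RLTR13 spread from −0.64 to 0.43.

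IAPs are endogenous retroviruses of the ERVK group that still insert into the mouse genome, and the 3 largest single rises were those of IAP subfamilies. Of 25 IAP subfamilies listed, 20 were tested, 17 were higher and none was lower as deposited, beside 66.4% higher among all tested. The median log2 fold change of these 20 was 1.48. After rescaling, 13 were higher and 2 lower, beside 29.2% and 12.4% of all tested. Together the IAP subfamilies summed to 7899 ± 905 RPM in KO against 228 ± 23.4 RPM in controls.

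IAPEz-int, the internal region of IAPEz elements, gave 5748, 6484 and 7410 RPM in the KO libraries and 76.5 to 98.3 RPM in the 5 controls. The groups lay far apart, with a log2 fold change of 6.23 ± 0.14 (SE; limma adjusted p = 1.28e-16). IAPA_MM, another IAP consensus, had the largest change of all subfamilies. Its RPM was 426, 450.5 and 519 in KO and 1.53 to 3.52 in controls, a log2 fold change of 7.12 ± 0.17 (limma adjusted p = 2.38e-16) and a ratio of the mean RPM of 194. IAPLTR1_Mm, the LTR that carries the promoter of IAPEz elements, stood at 308, 322 and 340 RPM in KO against 3.02 to 4.26 RPM (log2 fold change 6.17 ± 0.14). The log2 fold changes of the internal region and its LTR differed by less than their standard errors.

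The LTRs of the IAPLTR2 type followed at lower levels. IAPLTR2b gave 87.5, 94.5 and 99.02 RPM in KO and 1.39 to 2.57 RPM in controls (log2 fold change 5.07 ± 0.15). IAPLTR2a gave 40.2, 41.7 and 36.8 RPM against 1.06 to 2.20 RPM (4.02 ± 0.16), and IAPLTR2_Mm gave 68.1, 69.1 and 54.7 RPM against 2.88 to 3.81 RPM (3.91 ± 0.14). In all 3, the KO libraries lay far above the highest control. IAPLTR1a_Mm rose to between 30.0 and 35.6 RPM from 1.78 to 2.85 RPM (3.33 ± 0.15), and IAPLTR3-int to between 12.6 and 17.4 RPM from 0.35 to 0.69 RPM (3.34 ± 0.15). IAPLTR3-int passed the filter only through its KO libraries, as did 5 further subfamilies. Of these 6, 5 were called higher, a count that the filter itself favours.

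Not all IAPs moved to this extent. IAP1-MM_I, an internal region with 54.8 ± 6.24 RPM in controls, was at 162 ± 15.4 RPM in KO (log2 fold change 1.55 ± 0.14), and IAP-d at 35.3 ± 3.04 RPM against 13.1 ± 3.43 RPM (1.40 ± 0.19). The IAPE group, whose members can carry an envelope gene, was heterogeneous. IAPEY5_I rose to 25.2 to 29.0 RPM in KO from 3.86 to 5.51 RPM in controls (2.33 ± 0.14). IAPEy-int did not, with 8.54, 10.9 and 7.5 RPM in KO and 9.64 to 15.7 RPM in controls, overlapping groups and a log2 fold change of −0.37 ± 0.18 (limma adjusted p = 0.0710). After rescaling it was called lower, at −0.94 (limma adjusted p = 5.02e-04). IAPEY_LTR likewise stood at 2.68 ± 0.303 RPM in KO and 2.80 ± 0.339 RPM in controls, was not called as deposited and was called lower after rescaling (−0.50).

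**Figure D3:**
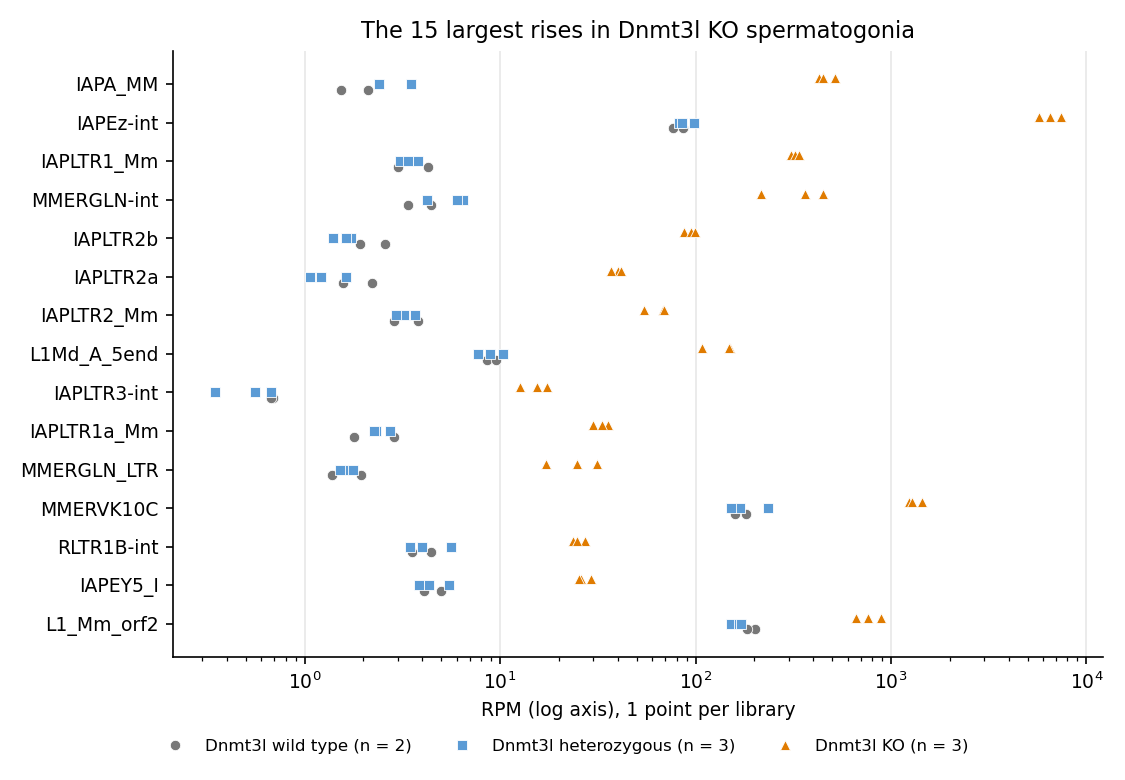
RPM (log axis) of the 15 subfamilies with the largest log2 fold changes among those called higher, 1 point per library, ordered by log2 fold change from IAPA_MM (7.12) to L1_Mm_orf2 (2.13). In each row the 3 KO libraries lie to the right of all 5 controls.

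MMERGLN is an endogenous retrovirus of the ERV1 group, and both of its subfamilies rose under either scaling. MMERGLN-int, the internal region, was at 365, 217 and 451 RPM in KO against 3.39 to 6.46 RPM in controls, a log2 fold change of 5.83 ± 0.22 (limma adjusted p = 1.66e-13). The KO libraries differed more from each other here, but the lowest was still far above the controls. MMERGLN_LTR, its promoter-bearing LTR, was at 24.7, 17.1 and 31.5 RPM against 1.38 to 1.94 RPM (3.22 ± 0.17). The KO library with the least internal RNA, replicate 2, also had the least LTR RNA.

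The MMERVK10 group of ERVK elements comprises the internal regions MMERVK10C and MMERVK10D3_I and the RLTR10 and MMERVK10D3 LTRs. Of 10 listed subfamilies 9 were tested. As deposited, 7 were higher and 1 lower (median log2 fold change 1.15), beside 66.4% higher and 6.19% lower among all tested. After rescaling, 6 were higher and 2 lower, beside 29.2% and 12.4%. MMERVK10C, its member with the highest RPM, gave 1243, 1276 and 1433 RPM in KO and 152 to 235 RPM in controls (2.89 ± 0.15; limma adjusted p = 2.00e-11). RLTR10C, its LTR, was at 43.0, 41.5 and 43.1 RPM against 7.85 to 10.5 RPM (2.07 ± 0.13), and RLTR10B at 9.70, 10.04 and 11.2 RPM against 1.21 to 1.99 RPM (2.08 ± 0.14). None of these overlapped.

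MMERVK10D3_I moved in the opposite direction. It gave 12.7, 17.7 and 14.5 RPM in KO and 18.2 to 26.3 RPM in controls, and every KO library was below every control, with a log2 fold change of −0.60 ± 0.15 (limma adjusted p = 0.00267). It was the only subfamily of the LTR elements that was called lower as deposited. Its LTR, MMERVK10D3_LTR, was at 3.24 ± 0.416 RPM in KO against 4.24 ± 1.13 RPM in controls. This difference was not called as deposited (−0.29 ± 0.17) and was called lower after rescaling (−0.77).

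Among the L1 elements, young and older subfamilies differed in the size of their rises and in whether the calls remained after rescaling. All 5 consensus sequences of young L1 were higher, also after rescaling, with a median log2 fold change of 2.05. L1Md_A_5end, which holds the promoter and the first open reading frame of L1Md_A, gave 149, 108 and 148 RPM in KO and 7.71 to 10.4 RPM in controls (3.76 ± 0.15; limma adjusted p = 3.14e-13). L1_Mm_orf2, the second open reading frame, which codes for the endonuclease and reverse transcriptase, gave 759, 662 and 891 RPM against 152 to 202 RPM (2.13 ± 0.14). L1Md_Gf_5end was at 46.9 ± 6.50 RPM in KO against 10.6 ± 1.65 RPM (2.05 ± 0.15), L1Md_A_3end at 114 ± 13.1 RPM against 29.0 ± 3.51 RPM (1.94 ± 0.14) and L1Md_T_3end at 91.8 ± 12.7 RPM against 36.9 ± 4.83 RPM (1.29 ± 0.15). Of 12 older L1 subfamilies (L1_Mus, L1Md_F, L1VL and Lx names), 11 were tested and 9 were higher as deposited, beside 66.4% of all tested. None was higher after rescaling, and the median of older L1 went from 0.54 to −0.07. The deposited median was near the 0.52 of all tested subfamilies, a shift that this rescaling removes by design. The lost calls therefore do not show that older L1 were unchanged. L1_Mus3_orf2, with the highest RPM of them, was at 129, 104 and 128 RPM in KO against 56.5 to 97.7 RPM in controls, with a log2 fold change of 0.79 ± 0.17 that was 0.17 and not called after rescaling. Against the wild-type libraries alone, the deposited calls of L1_Mus1_3end, L1_Mus3_3end, L1_Mus4_3end and Lx3_Mus_3end were lost, and those of the other called older L1 were kept.

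The remaining LTR families showed smaller differences. Subfamilies with names of the murine leukaemia virus and VL30 type (LTRIS, MMVL30, MuLV, MuRRS, MURVY, RLTR1, RLTR4 and RLTR6) numbered 30, all ERV1 in the files except RLTR1F_Mm, which is listed as ERVK. Of them 18 were tested, 13 were higher and none was lower, beside 66.4% higher among all tested. After rescaling 4 of the 13 were higher, beside 29.2% of all tested. These were RLTR1B-int and its LTR RLTR1B, RLTR4_MM-int and MuRRS4-int, the last of which passed the filter only through its KO libraries. RLTR1B-int was at 27.2, 23.7 and 24.8 RPM in KO against 3.48 to 5.59 RPM in controls (2.35 ± 0.15; limma adjusted p = 3.31e-10). RLTR4_MM-int, an internal region of the murine leukaemia virus type, was at 63.6 ± 3.48 RPM against 28.7 ± 3.35 RPM (1.13 ± 0.13). MMVL30-int, with the highest RPM of the list, was at 141, 87.1 and 91.4 RPM in KO against 39.9 to 73.2 RPM in controls, without overlap (0.90 ± 0.20), but was not called after rescaling (0.28).

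ETn/MusD elements, which are among the most active insertional mutagens of laboratory mice, had 6 of 10 subfamilies tested and 3 higher, beside 66.4% of all tested. MMETn-int and ETnERV rose under both scalings, while ETnERV2, which passed the filter only through its KO libraries, lost its call after rescaling. MMETn-int was at 19.4, 16.8 and 20.4 RPM in KO against 7.61 to 11.5 RPM in controls, and ETnERV at 28.9, 23.4 and 29.0 RPM against 12.04 to 16.2 RPM. The log2 fold changes were 1.00 ± 0.15 and 0.92 ± 0.14 as deposited and 0.41 and 0.31 after rescaling. The LTR RLTRETN_Mm, at 5.17 ± 1.20 RPM and 3.93 ± 0.956 RPM, was not called.

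MERVL, an endogenous retrovirus known for its expression in early embryos, and its LTR MT2_Mm had log2 fold changes of 0.72 ± 0.14 each. MERVL was at 79.1, 83.3 and 91.8 RPM in KO against 44.0 to 61.3 RPM in controls. Neither was called after rescaling (0.10 and 0.12). All 6 subfamilies of the nonautonomous MaLR elements were tested and 3 were higher as deposited, beside 66.4% of all tested. These 3, MTA_Mm, MT-int and ORR1A1-int, were not called against the wild-type libraries alone. After rescaling the median of the MaLR elements went from 0.34 to −0.24, none was higher and 1 was lower. MTA_Mm, with the highest RPM of them, was at 60.3 to 66.3 RPM in KO against 39.1 to 52.4 RPM in controls, with a log2 fold change of 0.43 ± 0.13 that turned to −0.19, not called, after rescaling. Of 22 RLTR13 LTRs 11 were tested and 7 were higher, beside 66.4% of all tested, and 1 of these, RLTR13B2, stayed so after rescaling. It was at 2.93, 3.05 and 3.20 RPM against 1.11 to 1.40 RPM (0.86 ± 0.13). Against the wild-type libraries alone, RLTR13B2 and RLTR13A3 kept their calls and the other called RLTR13 LTRs lost theirs. RLTR13B3, at 2.30 ± 0.817 RPM in KO and 2.76 ± 0.722 RPM in controls, was not called as deposited (−0.20 ± 0.19) and was called lower after rescaling (−0.64), as was RLTR13D2 (−0.27 as deposited, −0.54 after rescaling). Of 13 RLTR9 subfamilies none was tested. Of the 107 further subfamilies 13 were tested and 7 were higher, beside 66.4% of all tested, and none of these 13 was higher after rescaling. RLTR44-int, with the highest RPM of these, was at 37.4 to 44.5 RPM in KO against 19.4 to 27.8 RPM in controls (0.65 ± 0.15, and 0.03 after rescaling). The largest change among them was that of MMERVK9E_I, at 1.13 to 1.35 RPM in KO and 0.16 to 0.84 RPM in controls (0.67 ± 0.16, and 0.39, not called, after rescaling). It too passed the filter only through its KO libraries.

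All 6 SINE subfamilies listed, 3 of B1 and 3 of B2, were lower in KO under both scalings. With MMERVK10D3_I they make up the 7 falls. B2_Mm1a, with the highest RPM of them, gave 622, 611 and 569 RPM in KO and 969 to 1343 RPM in controls, which is 49.0% to 53.5% of the control mean, with a log2 fold change of −0.94 ± 0.14 (limma adjusted p = 1.75e-05). B2_Mm1t gave 301, 245 and 233 RPM against 368 to 678 RPM (−0.90 ± 0.18), and B2_Mm2 gave 141, 116 and 119 RPM against 189 to 277 RPM (−0.89 ± 0.15). No KO library of the B2 subfamilies reached the lowest control. The B1 changes were nearer to zero in value. B1_Mm was at 132, 104 and 110.1 RPM in KO against 139 to 235 RPM in controls (−0.76 ± 0.18), B1_Mus2 at 94.8, 72.3 and 80.0 RPM against 97.1 to 143 RPM (−0.62 ± 0.16) and B1_Mus1 at 117, 93.0 and 104 RPM against 118 to 172 RPM (−0.52 ± 0.15). For the 3 B1 subfamilies the highest KO library lay just under the lowest control, wild-type replicate 2. With wild-type controls alone, B1_Mus1 was no longer called (limma adjusted p = 0.0745), and the other 6 falls were. After rescaling, the 6 SINE log2 fold changes ran from −1.15 to −1.58.

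SINE levels also differed between the control groups of the series. The summed B1/B2 RPM was 2368 ± 372 in *Dnmt3l* controls (SD, n = 5), 937 ± 239 in *Pld6* controls (SD, n = 6), 1288 ± 104 in *Dnmt3l* KO and 896 ± 396 in *Pld6* KO (SD, n = 5). The lowest *Dnmt3l* control, at 1880.5 RPM, lay above the highest *Pld6* control, at 1288 RPM, and the *Dnmt3l* KO libraries, from 1215 to 1408 RPM, overlapped the *Pld6* controls. The control groups also differed in their wild-type libraries alone, which carry neither mutation. These had 2588 and 1880.5 RPM in the *Dnmt3l* line and 1288, 1116 and 616 RPM in the *Pld6* line. Between the KO of 1 line and the controls of the other, genotype and other differences between the lines cannot be told apart. What differs between the lines was not tested, nor how many of the reads come from gene transcripts that contain B1 or B2 copies.

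**Figure D4:**
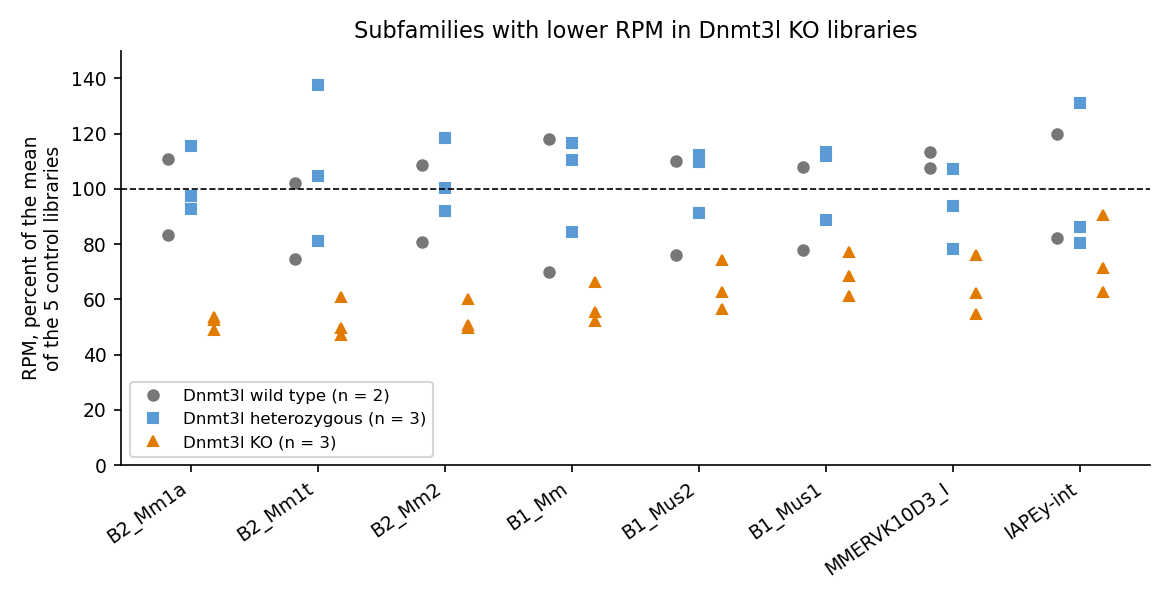
RPM in percent of the mean of the 5 control libraries (dashed line, 100%) for the 7 subfamilies called lower in KO, plus IAPEy-int, which was not called; 1 point per library. B2_Mm1a KO libraries lie between 49.0% and 53.5%, B1_Mus1 KO libraries between 61.2% and 77.1% with the lowest control at 77.9%, and for IAPEy-int the groups overlap.

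The parts of 1 element did not always change together. These ratios were picked after their values had been seen and carry no test. L1Md_A_5end RPM equalled 118% ± 9.25 of L1Md_A_3end RPM in KO (SD, n = 3) and 31.6% ± 6.22 in controls (SD, n = 5), so the 5′ region rose more than the 3′ region, without overlap of the libraries. Between different L1 groups rather than parts of 1 element, L1Md_Gf_5end equalled 119% ± 18.4 of L1Md_A_5end in controls and 34.9% ± 2.17 in KO. In MMERGLN the LTR equalled 36.3% ± 13.4 of the internal region in controls and 7.20% ± 0.582 in KO, and in RLTR1B 58.4% ± 5.51 and 29.0% ± 3.15. RLTR10C equalled 5.35% ± 0.871 of MMERVK10C in controls and 3.24% ± 0.225 in KO. In these 3 the internal region rose more than the LTR, and no library overlapped. Further ratios differed without overlap. RLTRETN_Mm equalled 45.3% ± 16.4 of MMETn-int in controls and 27.15% ± 3.85 in KO, and IAPA_MM 2.75% ± 0.586 and 7.12% ± 0.258 of IAPEz-int. L1Md_A_3end equalled 16.5% ± 1.09 of L1_Mm_orf2 in controls and 14.9% ± 0.727 in KO. In all other pairs computed, KO and control libraries overlapped. IAPLTR1_Mm equalled 4.13% ± 0.826 of IAPEz-int in controls and 4.97% ± 0.384 in KO, IAP1-MM_LTR 8.03% ± 1.16 and 8.08% ± 1.25 of IAP1-MM_I, and MT2_Mm 26.0% ± 4.31 and 26.4% ± 4.24 of MERVL. The rest were RLTR4_Mm with RLTR4_MM-int, MTA_Mm with MT-int, ORR1A1 with ORR1A1-int, MMERVK10D3_LTR with MMERVK10D3_I and RLTR6_Mm with RLTR6-int. B1_Mm with B2_Mm1a, which are different elements, overlapped too. Reads of similar subfamilies can fit more than 1 consensus, and how the mapping divided them is not given in the sources used here.

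Wild-type and heterozygous controls were compared to see whether the pooled control group held 2 levels. None of the 113 subfamilies was called (0%) with limma, and 10 had an unadjusted p under 0.05. With the 5 control libraries alone in the fit, 3 were higher in heterozygotes, ERVB4_1B-I_MM, ERVB4_1-I_MM and IAPEY4_I. ERVB4_1B-I_MM is an internal region of an ERVK element. It was at 20.99 and 14.8 RPM in the wild-type libraries, 80.8, 39.6 and 19.8 RPM in the heterozygous and 78.5, 25.5 and 51.0 RPM in the KO libraries. KO and control libraries overlapped (log2 fold change 0.68 ± 0.42; limma adjusted p = 0.143), and replicate 1 was highest in both the heterozygous and the KO group. Against the wild-type libraries alone it was called higher (1.36; limma adjusted p = 0.0324), against the heterozygous ones it was not (0.22), and with single libraries left out the log2 fold change ran from 0.31 to 1.10. None of the 4 tested ERVB4 subfamilies was called between KO and all 5 controls. IAPEY4_I had a similar profile, with 11.97 and 9.39 RPM in wild-type, 28.4, 21.03 and 10.7 RPM in heterozygous and 48.4, 21.5 and 35.8 RPM in KO libraries (1.11 ± 0.30). It is the rise of at least 1 that was not called after rescaling (0.51). Against the 2 wild-type libraries alone, KO libraries were higher in 52 subfamilies (46%) and lower in 7 (6.19%). These 7 are not the same set as the falls with all controls, since B1_Mus1 was not among them. Against the 3 heterozygous libraries alone, KO libraries were higher in 76 (67.3%) and lower in 7 (6.19%). Of the 82 calls with all 5 controls, 25 were lost with the wild-type and 3 with the heterozygous libraries. The control groups differ in size, so these counts do not compare directly.

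The calls nearest to the threshold were small. RLTR20C2_MM, at 2.41, 1.66 and 2.32 RPM in KO and 1.24 to 1.83 RPM in controls, was just inside it (0.35 ± 0.15; limma adjusted p = 0.0396), lost its call in most fits that left out 1 library, and turned to −0.05 after rescaling. LTRIS_Mm, at 3.73 to 4.43 RPM against 2.64 to 3.66 RPM, was just outside (0.32 ± 0.14; limma adjusted p = 0.0562). Of the 75 rises, 60 were called in every fit that left out 1 of the 8 libraries. The other 15 had log2 fold changes of at most 0.51. All 7 falls were called in each of these fits.

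The *Pld6* KO, which lacks an enzyme of piRNA production, offers another mutant against which the size of the *Dnmt3l* effects can be set. The lines share no control libraries. In a fit of all 19 libraries over 114 subfamilies, *Pld6* KO was higher than its controls in 47 (41.2%) and lower in none (0%). *Dnmt3l* KO was higher than its controls in 53 of the 114 and lower in 7 in the same fit. The 75 rises given above came from the fit of the 8 *Dnmt3l* libraries. In the fit of 19, the difference between the KO effects (*Dnmt3l* KO minus control, less *Pld6* KO minus control) was called for 22 subfamilies. Of these, 14 had a positive difference (12.3%) and 8 a negative one (7.02%). Of the 14, 8 were IAP subfamilies, of which IAPLTR2a and IAPLTR2_Mm were not called after rescaling. IAPA_MM led, with a difference of 2.5 ± 0.45 on the log2 scale (limma adjusted p = 2.66e-04). IAPEz-int rose to 6547 ± 833 RPM in *Dnmt3l* KO and to 1206 ± 434 RPM in *Pld6* KO from 85.8 ± 7.96 and 76.6 ± 9.499 RPM in the respective controls, a difference of 2.38 ± 0.36 (limma adjusted p = 5.66e-05). IAPLTR1_Mm differed by 2.22 ± 0.39 and MMERVK10C, at 1317 ± 102 and 445 ± 123 RPM in the KO groups, by 1.47 ± 0.30.

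In the other direction, 4 of the 5 young L1 subfamilies rose less in *Dnmt3l* KO. The fifth, L1Md_Gf_5end, had a difference of −0.96 that was not called as deposited (limma adjusted p = 0.124) and was called after rescaling (−1.09; limma adjusted p = 0.0396). L1_Mm_orf2 reached 771 ± 115 RPM in *Dnmt3l* KO and 2331 ± 451 RPM in *Pld6* KO (−1.63 ± 0.29; limma adjusted p = 2.13e-04), and L1Md_A_5end 135 ± 23.4 and 388 ± 131 RPM (−1.66 ± 0.50; limma adjusted p = 0.0203). Without *Dnmt3l* KO replicate 2, the calls of L1Md_A_5end (limma adjusted p = 0.0695) and of L1Md_T_3end (limma adjusted p = 0.0684) were lost. IAPEy-int, which was not called between *Dnmt3l* KO and its controls, was at 36.4 ± 2.86 RPM in *Pld6* KO and 12.1 ± 3.37 RPM in *Pld6* controls, and its difference, −1.92 ± 0.27, was the largest of this sign. IAPEY_LTR (−1.52) and IAPEY3-int (−1.17) differed in the same direction. MMERGLN-int, at 221 ± 56.0 RPM in *Pld6* KO, was not called different between the lines (0.66 ± 0.38; limma adjusted p = 0.271). Among the SINEs B2_Mm2 was called (−0.87 ± 0.25; limma adjusted p = 0.0161), a call that was lost without *Dnmt3l* KO replicate 2 (limma adjusted p = 0.0532), and the other 5 were not, with differences from −0.46 to −0.74, although the 3 B1 subfamilies were called after rescaling. No SINE was called between *Pld6* KO and *Pld6* control.

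**Figure D5:**
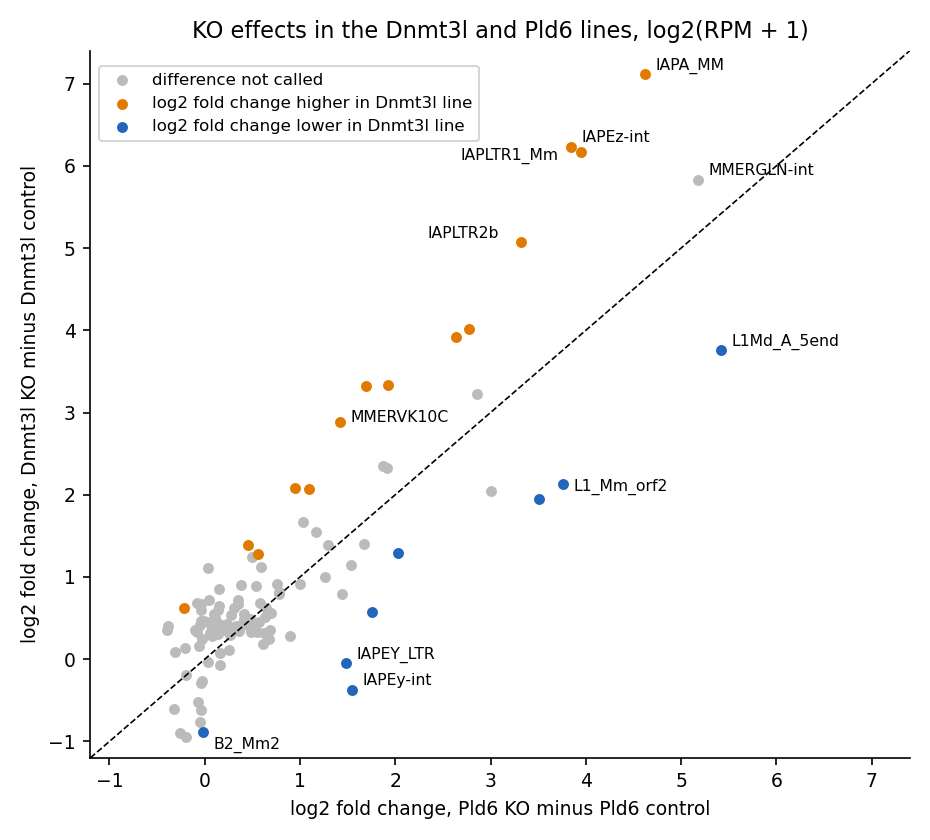
Log2 fold change on log2(RPM + 1) of 114 subfamilies in the *Dnmt3l* line (vertical axis) and in the *Pld6* line (horizontal axis), each KO against the controls of its own line; the dashed line marks equal changes. Orange and blue points are the 22 subfamilies whose difference was called, with IAPA_MM, IAPEz-int and MMERVK10C above the line and L1Md_A_5end, L1_Mm_orf2 and IAPEy-int below it.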

How the data were processed

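Per the labels and the methods, poly(A) RNA of sorted spermatogonia was made into directional libraries and sequenced in single-end reads of 50 bases. The authors used hisat2 to place the reads on consensus sequences of retrotransposons, and the deposited values are RPM for 259 subfamilies per library. Trim Galore is named in the submitters' processing notes, as is the genome build, which played no part here because no coordinates were used. The mapping settings and the reads counted in the mapped total are not given in the sources used here. Low RPM values lay on multiples of a common step, within 0.0051 RPM, for 63.5% to 94.4% of the low values of a library. Whole reads were therefore not recovered, no count model was used and counting errors are not given.

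The 8 *Dnmt3l* libraries were fitted without covariates on log2(RPM + 1), with a pseudocount of 1, by limma (lmFit and trended eBayes; limma 3.58.1 under R 4.3.3). Subfamilies had to reach 1 RPM in 2 or more libraries. P-values were two-sided and adjusted over all subfamilies tested, with a threshold of 0.05. On this scale the change of subfamilies with low RPM is understated. The wild-type and heterozygous comparison used the same 8 libraries in 3 groups, and the comparison of the lines used all 19 libraries. The total of summed RPM was compared by a two-sided exact permutation test. The same test had been planned for family sums, which are given without p because the families were chosen with results known. Rescaling divided RPM by the median ratio over 44 of the listed subfamilies, those with at least 5 RPM in each of the 8 libraries. For the comparison of the lines, factors were made in the same way over all 19 libraries.

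Families were grouped by subfamily name. The subfamilies named are the 15 largest rises and all falls without overlap of the groups, the subfamily with the highest RPM and the most changed one of each family, the 3 largest differences between the lines in each direction and the calls nearest to the threshold. Others were named after their values were seen. Members and lists were chosen with earlier results of these data known. The fit was tested on simulated data of the same 113 subfamilies, with normal noise of the control SD. It called 20 of 20 subfamilies raised by 1 on the log2 scale and 18 of 20 lowered by 1, but 7 and 12 of 20 at a change of 0.5. Of the 73 left unchanged, 2 were called in the first case and 1 in the second. The changed subfamilies were drawn only from those with higher control RPM, so these rates do not cover subfamilies with low RPM. Sums, permutations and figures were made in Python 3.11.15 with scipy 1.17.1, pandas 2.3.3, matplotlib 3.10.9 and numpy 2.4.6. No 2 libraries held identical values.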

Additional observations from a re-analysis of the deposited data

Results flagged for a closer look

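Among 150 groups of 4 to 10 libraries examined for a library far from the others, of which chance flags about 1 in 20, 4 held one. In the *Dnmt3l* controls, RLTR44-int was at 19.4 RPM in heterozygous replicate 1, below 26.0 to 27.8 RPM in the other 4. In the *Pld6* KO group, replicate 5 had 448 RPM of IAPEz-int, where the others had 1272 to 1523 RPM, and 813 RPM of all IAPs, where the others had 1824 to 2009 RPM. Without this library the IAPEz-int difference between the lines was 2.06 instead of 2.38 and was still called. MMERGLN_LTR was at 2.75 RPM in *Pld6* heterozygous replicate 1 and at 1.46 to 1.79 RPM in the other *Pld6* controls.

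For 13 named subfamilies the KO effect differed between the lines by limma's test of the difference, on log2(RPM + 1), *Dnmt3l* minus *Pld6*. The difference was positive for IAPA_MM (2.496), IAPEz-int (2.38), IAPLTR1_Mm (2.22), IAPLTR2b (1.75), IAPLTR1a_Mm (1.64), MMERVK10C (1.47), IAPLTR3-int (1.41), IAPLTR2_Mm (1.27) and IAPLTR2a (1.25). It was negative for B2_Mm2 (−0.87), L1_Mm_orf2 (−1.63), L1Md_A_5end (−1.66) and IAPEy-int (−1.92). The calls of IAPLTR2_Mm and IAPLTR2a were lost after rescaling, with pseudocounts of 0.1 and 0.5 and with wild-type controls, and that of IAPLTR2_Mm also without *Dnmt3l* KO replicate 1 or 2. Those of IAPLTR3-int and L1Md_A_5end were lost with a pseudocount of 0.1 and with wild-type controls, that of IAPLTR2b with a pseudocount of 0.1, and that of B2_Mm2 with wild-type controls. Without *Dnmt3l* KO replicate 2, L1Md_A_5end and B2_Mm2 also lost theirs.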

How the results depend on the processing

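The 75 higher and 7 lower subfamilies became 49 and 7 with a mean RPM of at least 5 (65 subfamilies tested) and 33 and 14 after rescaling. With pseudocounts of 0.1 and 0.5, no filter, wild-type or heterozygous controls, all 19 libraries or other eBayes settings, 52 to 76 were higher and 7 to 8 lower. Leaving out each library in turn gave 63 to 79 and 7 to 8. The replicate number as a block gave 75 and 7. Deviations of same-numbered heterozygous and KO libraries correlated at 0.559, 0.113 and 0.035. Same-numbered wild-type libraries correlated at 0.19 and 0.314 with heterozygous and at 0.093 and 0.136 with KO libraries. Differently numbered pairs were mostly negative and ran from −0.515 to 0.448, the latter for heterozygous replicate 3 with KO replicate 2. The labels do not state whether the numbers pair mice, and this was not tested. The main fit took no account of the numbers. Heterozygous against wild type went from 0 higher calls to 3 with the 5 controls alone and to 4 with the block.

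Rescaling lost 42 of the 82 calls of KO against control and turned the sign of 14 of them, among the named ones MTA_Mm (−0.19) and RLTR20C2_MM (−0.051), both then uncalled. The log2 differences of the family sums after rescaling were 4.96 for MMERGLN, 4.48 for IAP, 2.01 for MMERVK10, 1.51 for young L1, 0.34 for the names of the murine leukaemia virus and VL30 type, 0.17 for ETn/MusD, 0.10 for MERVL, 0.086 for older L1, −0.013 for ERVB4, −0.10 for RLTR13, −0.12 for the further subfamilies, −0.14 for RLTR9, −0.24 for MaLR and −1.50 for SINE B1/B2. As deposited, only SINE B1/B2 was negative. RLTR9 ranged from −0.068, without KO replicate 1, to 0.318 as single libraries were left out (0.174 with all). The sum of older L1 was 0.51 with wild-type controls.

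The positive differences between the lines went from 14 to 6 with a pseudocount of 0.1 and to 9 with a mean RPM of at least 5, with rescaling and with wild-type controls. The negative ones went from 8 to 14 with rescaling and to 5 with wild-type controls, and ranged from 5 to 10 as single libraries were left out, with 5 without *Dnmt3l* KO replicate 2. *Pld6* heterozygous replicate 1 had 159 subfamilies listed at 0, where the other libraries of the series had 60 to 90. Leaving it out was chosen after the data had been seen. This lost none of the 22 calls and gave 18 positive and 9 negative differences. The cause of these changes was not tested. Over the named subfamilies alone, 1401 values kept their direction and call, 37 lost and 25 gained a call, and 2 reversed, all counted over every alternative. The unknown depth limits what can be said of low RPM.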
